A study of Mus musculus with 4 samples.

Results

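Lysosome genes were examined in ATAC-seq profiles of mouse fibroblasts without Rela and of mouse fibroblasts without Kindlin-2. A gene counted as a lysosome gene when the deposited Rela table annotated it with the KEGG lysosome pathway, genes of the solute carrier (Slc) family being left out. This gave 60 genes with 65 regions among 7224 named genes and 28445 regions of the Rela table. By gene name, 20 of the 60 genes had 21 regions among the 2480 named genes and 5727 regions of the Kindlin-2 table. The Rela groups were Rela K.O. and Rela wt cells of the embryonic 3T3 fibroblast line, and the Kindlin-2 groups were Kindlin-2 K.O. and Kindlin-2 floxed fibroblasts from kidney. Rela encodes the p65 subunit of NF-kB, and Fermt2 encodes Kindlin-2, which binds integrin tails and helps to activate them. All cells were at passages 15 to 20 and were grown with 10% bovine calf serum, and 50000 cells entered each library. How the knockouts were made, and whether a culture was 1 clone, is not given in the sources used here. Each genotype had 1 column of normalized signal although the design text gives 2 biological replicates, so differences between genotypes carry no replicate error and could not be tested.

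Lysosomes are acidic organelles in which hydrolases break down proteins, glycans, lipids and nucleic acids that arrive by endocytosis and autophagy. Most hydrolases are tagged with mannose 6-phosphate in the Golgi and delivered by receptors and clathrin adaptors, and a proton pump, the V-ATPase, keeps the lumen acidic. Many lysosome genes are induced together by TFEB and its relatives TFE3 and MITF, which bind a palindrome known as the CLEAR element around the E-box core CACGTG. Fibroblasts express most of these enzymes, whereas some lysosome genes are best known from blood cells and osteoclasts.

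Signal in the tables is background-corrected and normalized within each table. A difference is given as the log2 ratio of knockout over control, each with a pseudocount of 1 added, and regions with a log2 ratio of 1 or more, or of -1 or less, are called higher or lower (2-fold). Folds in the text are plain ratios of the signals, and brackets hold 95% intervals for counting error alone. Signal summed to 1458609 in Rela knockout and 1386832 in wild-type cells. In the Kindlin-2 table it summed to 827408 in knockout and 1655317 in floxed cells. Of this, only 114217 and 134996 lay outside 2 mitochondrial regions. The median region rested on about 36.9 implied counts in Rela knockout and 49.8 in wild-type cells, but on only about 11.8 in Kindlin-2 floxed cells. For Kindlin-2 knockout cells no usable scaling factor was found. Their median signal of 16 is therefore not an implied count, and their depth is uncertain. Rela had 1 region, at its promoter, with a signal of 27 in knockout and 21 in wild-type cells, a ratio of 1.29 (0.725 to 2.16). Promoter accessibility gives no check of the knockout, and Fermt2 had no region. Of 12 fibroblast markers 8 had regions in the Rela table, and 0 had one in the Kindlin-2 table. Of their 9 regions S100a4 (133 in knockout and 46 in wild-type cells) and Fbln1 (29 and 12) were higher, Dpt (8 and 23) and 1 Col1a2 region (18 and 40) were lower, and Vim, Pdgfra, Pdgfrb, Thy1 and the other Col1a2 region were within 2-fold. In these bulk profiles, fewer cells with a region open and less opening per cell cannot be told apart.

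The promoter sequences were searched for 5 motifs. The CLEAR element was chosen because it is known from lysosome genes, so its share here is a description and no independent support. RefSeq windows from 250 bases before to 50 after a gene start were matched for 45 of the 60 genes. Only 36 of the windows overlapped the gene's region nearest its start, and those of Idua and Arsa did not. The E-box core CACGTG, a palindrome, occurred in 10 of these 45 windows (22.2%), against 9.79% of the 5516 windows of all genes in the Rela table and 7.15% of 32851 RefSeq windows of the same length. The longer core of the CLEAR element, TCACGTGA, which is also a palindrome and holds the E-box core, occurred in 6 of 45 (13.3%), against 1.89% and 0.974%. Those 6 genes were Mcoln1, Sumf1, Cd164, Ctsd, Atp6v0d1 and Gla. On either strand, the AP-1 site TGANTCA was in 4 windows (8.89%, against 5.29% and 7.81%), the kappaB form GGANTTTCC in 2 (4.44%, against 1.38% and 1.25%), those of Ctsl and Idua, and CCAAT in 17 (37.8%, against 43.5% and 37.4%). These are matches of letters and no measurement of binding.

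**Figure D1:**
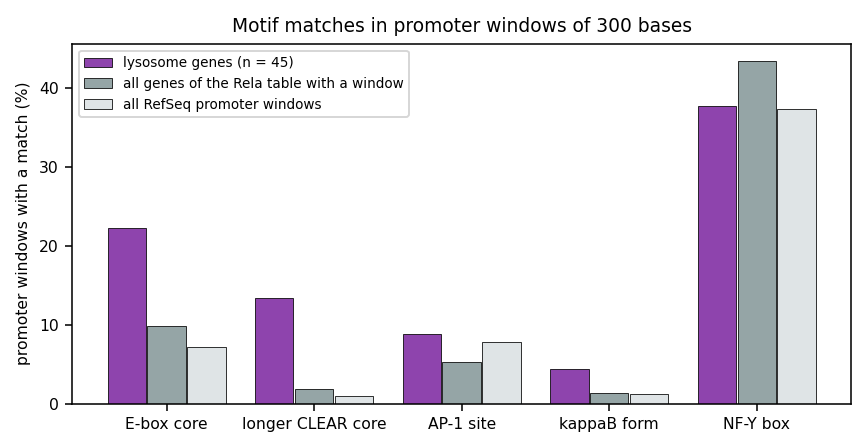
Share of promoter windows with at least 1 match to a motif (vertical axis, percent), for the 45 lysosome genes with a window, all genes of the Rela table with a window and all RefSeq windows. The longer CLEAR core was in 13.3% of lysosome windows, against 1.89% and 0.974% of the other sets.

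The 100 bases before and 50 bases after the start are printed below for 8 genes, from RefSeq on GRCm38.p6, 5′ to 3′ along the gene, with E-box and CLEAR core matches in capitals. Ctsz marks the group, Acp5 and Gnptab had the highest and lowest log2 ratio among lysosome promoter regions of the Rela table, and Pla2g15 had the highest among those whose region overlaps the window. The other 4 hold the longer CLEAR core and had the largest differences among such genes.
Mcoln1, chr8:3500419-3500568, + strand, core 46 bases before the start: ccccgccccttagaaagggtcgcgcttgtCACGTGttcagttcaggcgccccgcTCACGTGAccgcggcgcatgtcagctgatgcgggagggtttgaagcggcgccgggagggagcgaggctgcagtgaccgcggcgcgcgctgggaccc
Sumf1, chr6:108185534-108185683, - strand, core 12 bases before the start: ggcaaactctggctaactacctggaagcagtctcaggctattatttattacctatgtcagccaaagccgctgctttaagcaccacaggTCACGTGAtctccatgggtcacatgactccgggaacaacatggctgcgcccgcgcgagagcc
Cd164, chr10:41519400-41519549, + strand, core 88 bases before the start: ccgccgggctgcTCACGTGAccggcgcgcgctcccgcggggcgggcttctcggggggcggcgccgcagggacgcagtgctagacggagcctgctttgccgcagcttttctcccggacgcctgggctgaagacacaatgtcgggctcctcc
Ctsd, chr7:142387778-142387927, - strand, core 99 bases before the start: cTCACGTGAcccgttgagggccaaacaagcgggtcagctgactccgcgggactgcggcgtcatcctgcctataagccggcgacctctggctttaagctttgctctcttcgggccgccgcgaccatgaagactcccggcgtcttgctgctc
Gnptab, chr10:88379168-88379317, + strand, no match: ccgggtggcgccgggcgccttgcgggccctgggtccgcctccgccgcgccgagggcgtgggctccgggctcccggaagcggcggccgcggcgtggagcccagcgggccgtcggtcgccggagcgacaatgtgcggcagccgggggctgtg
Pla2g15, chr8:106150254-106150403, + strand, no match: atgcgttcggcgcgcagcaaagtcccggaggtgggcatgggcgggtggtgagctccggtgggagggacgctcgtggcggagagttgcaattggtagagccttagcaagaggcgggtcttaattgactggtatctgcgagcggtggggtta
Acp5, chr9:22135697-22135846, - strand, no match: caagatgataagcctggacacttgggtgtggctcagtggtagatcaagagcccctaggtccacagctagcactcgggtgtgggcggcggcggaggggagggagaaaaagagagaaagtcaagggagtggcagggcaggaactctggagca
Ctsz, chr2:174438990-174439139, - strand, no match: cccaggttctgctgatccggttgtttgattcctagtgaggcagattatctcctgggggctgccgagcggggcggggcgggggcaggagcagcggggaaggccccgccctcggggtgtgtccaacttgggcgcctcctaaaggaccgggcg

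The first comparison asked how accessibility of the lysosome genes differs in 3T3 fibroblasts when Rela is lost. As a group they did not differ in 1 direction: 9 of 65 regions were higher in the knockout, 9 were lower and 47 lay within 2-fold, with a median log2 ratio of 0.01. Among all 28332 regions entered, 22.4% were called higher and 21% lower, with a median of 0.00. Most lysosome regions are promoters, and the 59 whose centre lay within 2500 bp of the start held 7 higher and 7 lower (11.9% each), close to the 13% and 13.1% of all 8061 promoter regions. The 18 regions past 2-fold belonged to 17 genes. Counting intervals left out a ratio of 1 for 33 of the 65 regions, among them all 18, and lay wholly beyond 2-fold for 6 higher and 4 lower regions. The intervals rest on the same values as the calls, so they lend the calls no separate support. They were not computed over all regions of the table. All 65 regions passed the minimum mean signal of 1. Their median signal was 58 in knockout and 51 in wild-type cells, against 36 and 34 over all regions, and 44 of the 65 lay at or above the median region in mean signal. Among promoter regions alone the medians were closer, at 59 and 56 for lysosome genes against 52 and 52 for all.

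**Figure D2:**
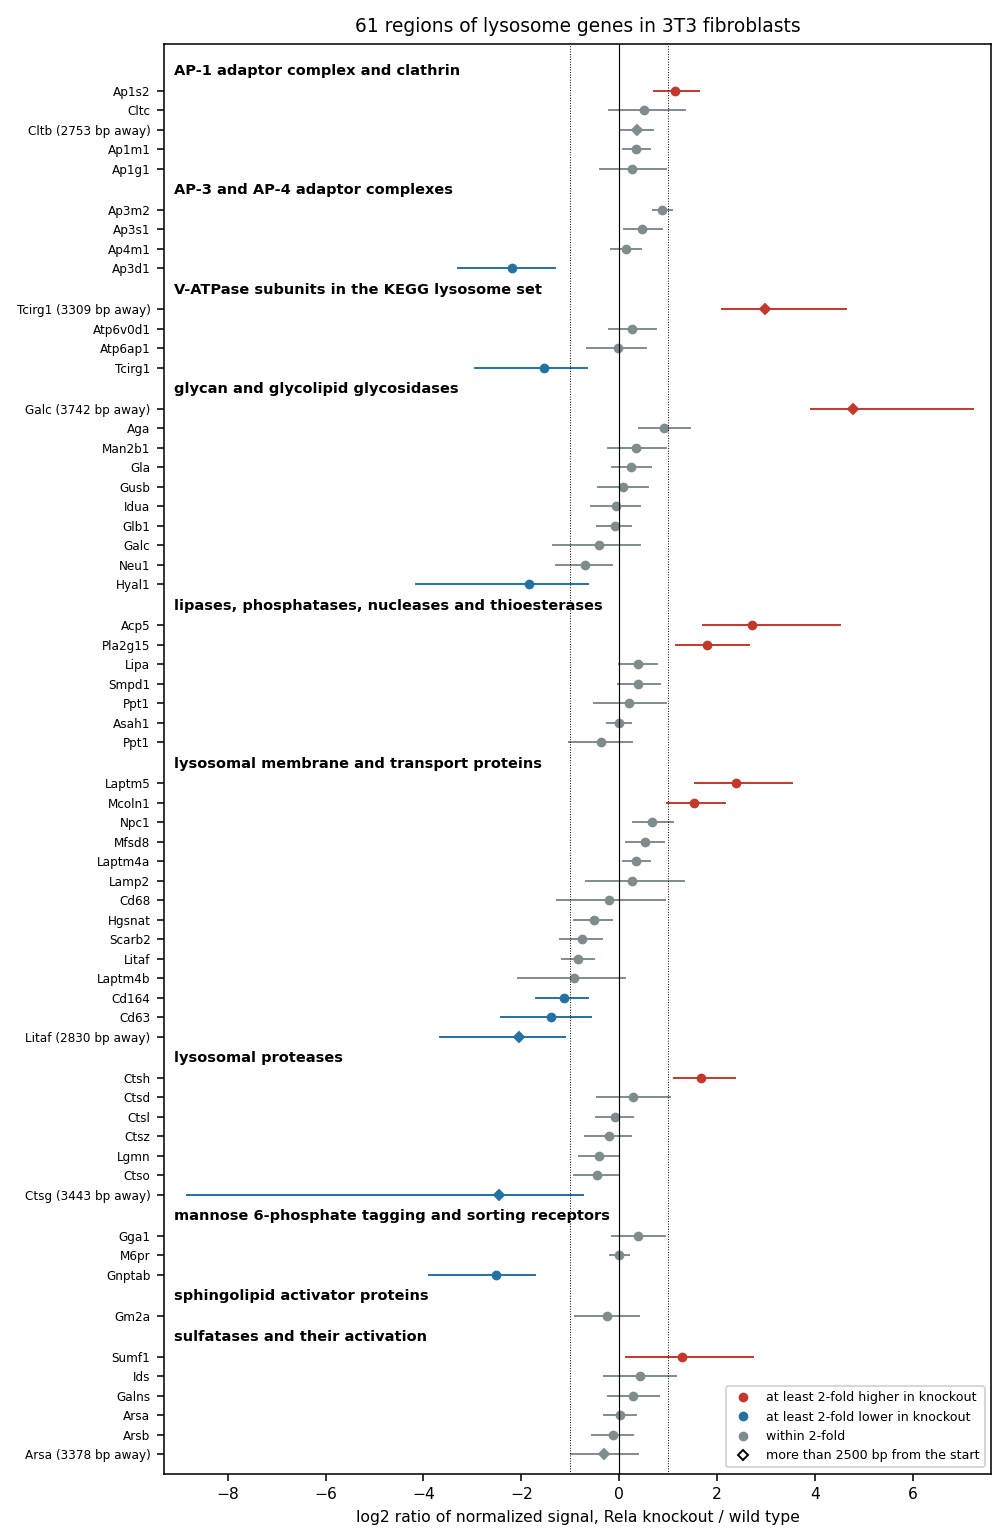
Log2 ratio of normalized signal, Rela knockout over wild type (horizontal axis), for 61 of the 65 lysosome regions, sorted within 10 groups by role. Symbols are regions, diamonds those more than 2500 bp from the start, and lines are 95% intervals of the plain ratio for counting error. Regions past the dotted 2-fold lines lie on both sides within the larger groups, from Galc (4.78) to Gnptab (-2.51).

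Among the lysosomal proteases, 1 of 7 genes was higher without Rela, 1 was lower and 5 were within 2-fold. Counts in this and the following groups are small and stand beside 13% higher and 13.1% lower of all promoter regions. The region of Ctsh, which encodes the aminopeptidase cathepsin H, lay 532 bp from the start and held 72 in knockout and 22 in wild-type cells, 3.27-fold higher (2.16 to 5.16). The 1 region within 50 kb of it had a log2 ratio of -0.40. The Ctsz promoter, for the carboxypeptidase cathepsin Z, held 60 in knockout and 70 in wild-type cells, a ratio of 0.857 (0.617 to 1.19). Promoters of Ctsl, encoding the endopeptidase cathepsin L (96 and 102), and Ctsd, encoding the aspartic protease cathepsin D (28 and 23), were likewise close in knockout and wild-type cells. Those of Lgmn, encoding the asparaginyl endopeptidase legumain, and of Ctso, encoding the cysteine protease cathepsin O, held 82 and 63 in knockout cells, against 109 and 87 in wild-type cells. Both intervals fell just short of 1, and the log2 ratios were -0.41 and -0.46. The remaining region, assigned to Ctsg, a protease gene of neutrophil granules, was the weakest of all 65 and held 1 in knockout and 10 in wild-type cells, a ratio of 0.100 (0.00220 to 0.602). It lay downstream of the gene and is named here after its values were seen.

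Of 12 regions of glycan and glycolipid hydrolases 1 was higher and 2 were lower, and the higher one had the largest log2 ratio of the 65. Over all promoter regions 13% were higher and 13.1% lower. A region inside Galc, the gene of galactosylceramidase, on chr12:98255490-98255943, 3742 bp from the start, held 109 in knockout and 3 in wild-type cells, a ratio of 36.3 (15.2 to 149). The Galc promoter held 17 in knockout and 23 in wild-type cells, a ratio of 0.739 (0.391 to 1.34). The rise inside the gene was thus not seen at its start, where the interval is too wide to exclude a 2-fold fall. None of the 3 other regions within 50 kb was past 2-fold. In the opposite direction, the promoter of the hyaluronidase gene Hyal1 was weak, with 4 in knockout and 17 in wild-type cells, 4.25-fold lower (1.55 to 17.8).

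The 9 glycosidase regions within 2-fold had log2 ratios from -0.71 to 0.90. The upper end was Aga, encoding aspartylglucosaminidase (72 in knockout and 38 in wild-type cells, 0.29 with chromosomes centred and -0.26 with neighbours centred). The lower end was the sialidase gene Neu1 (37 in knockout and 61 in wild-type cells, -0.14 with chromosomes centred and 0.04 with neighbours centred). Promoters of Glb1, encoding beta-galactosidase (116 in knockout and 124 in wild-type cells), Gla, encoding alpha-galactosidase A (95 and 80), and Gusb, encoding beta-glucuronidase (54 and 51), differed little. So did those of Idua, encoding alpha-L-iduronidase (56 in knockout and 59 in wild-type cells), and Man2b1, encoding lysosomal alpha-mannosidase (47 and 37). In KEGG, 10 of the 60 genes are also annotated to glycosaminoglycan degradation, of which 2 were lower and 0 higher, with a median of -0.09 (13.1% of all promoter regions were lower). Of 9 regions of 7 sphingolipid metabolism genes, 1 (Galc) was higher and 0 were lower (13% of all promoter regions were higher). The activator gene Gm2a, which helps to break down GM2 ganglioside, held 32 in knockout and 38 in wild-type cells.

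Of the 6 genes of sulfatases and their activation, Sumf1 alone was past 2-fold (26.1% of all promoter regions were). Sumf1 encodes the enzyme that activates sulfatases in the endoplasmic reticulum, and its promoter held 16 in knockout and 6 in wild-type cells, 2.67-fold higher (1.11 to 6.68). With a pseudocount of 5 its log2 ratio was 0.93, within 2-fold. Promoters of the sulfatase genes Arsb (79 in knockout and 87 in wild-type cells), Galns (56 and 46) and Ids (31 and 23) were within 2-fold. The 2 Arsa regions were too, with 127 and 28 in knockout cells, against 126 and 35 in wild-type cells. Some of these regions also held starts of other genes: the Galns region held the RefSeq start of Trappc2l, an Arsa region that of C230037L18Rik and the Idua region that of Dgkq. In all, 6 of the 65 regions held RefSeq starts on both strands.

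Lipid, phosphate and thioester hydrolases held 2 higher regions and 0 lower among 7 (13% and 13.1% of all promoter regions). A region 1627 bp upstream of Acp5, the gene of tartrate-resistant acid phosphatase of osteoclasts and macrophages, held 32 in knockout and 4 in wild-type cells, 8-fold higher (3.27 to 22.9). Neither of its 2 neighbours within 50 kb was past 2-fold. The promoter of Pla2g15, the lysosomal phospholipase A2 gene, held 58 in knockout and 16 in wild-type cells, 3.63-fold higher (2.25 to 6.24). Its 1 neighbour within 50 kb had a log2 ratio of 2.94, and chromosome 8 as a whole had a median of 0.61. Centred on the 50 nearest regions on each side, Pla2g15 had a log2 ratio of 1.08. The strongest promoter of this group, that of the acid ceramidase gene Asah1, held 235 in knockout and 236 in wild-type cells. Lipa, encoding acid lipase (106 and 81), Smpd1, encoding acid sphingomyelinase (85 and 65), and both regions of the thioesterase gene Ppt1 (32 and 29, against 42 and 25) were within 2-fold of wild type in the knockout.

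Genes of the lysosomal membrane split both ways, with 2 of 15 regions higher and 3 lower (13% and 13.1% of all promoter regions). The promoter of Mcoln1, which encodes the calcium channel TRPML1 and holds the CLEAR core, had a signal of 74 in knockout and 25 in wild-type cells, 2.96-fold higher (1.96 to 4.46). Relative to the median of chromosome 8 its log2 ratio of 1.53 became 0.92, and relative to its neighbours 0.66, so the 2-fold call was lost in both cases. A region 2478 bp into Laptm5, a membrane protein gene best known from blood cells, held 46 in knockout and 8 in wild-type cells, 5.75-fold higher (2.91 to 11.5), and no other region lay within 50 kb. A region of Litaf 2830 bp from the start held 7 in knockout and 32 in wild-type cells, 4.57-fold lower (2.17 to 12.7). The other Litaf region, 69 bp from the start, held 110 in knockout and 197 in wild-type cells, a ratio of 0.558 (0.447 to 0.697), but RefSeq starts of Snn and Gm9861 lie inside it and the Kindlin-2 table assigns the overlapping region to Snn.

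The tetraspanin gene Cd63 and the sialomucin gene Cd164, both on chromosome 10, were lower without Rela. A region 831 bp from the Cd63 start held 13 in knockout and 36 in wild-type cells, 2.77-fold lower (1.49 to 5.32). The Cd164 promoter held 39 in knockout and 87 in wild-type cells, 2.23-fold lower (1.56 to 3.25). Both were within 2-fold relative to the chromosome median (log2 ratios -0.82 and -0.56). Relative to the 50 nearest regions on each side, Cd63 stood at -1.03, still past 2-fold, and Cd164 at -0.03. Of the remaining genes, Lamp2, encoding a major lysosomal membrane glycoprotein, had a weak promoter (17 in knockout and 14 in wild-type cells) and Lamp1 had no region in either table. The promoter of the cholesterol transporter gene Npc1 held 103 in knockout and 64 in wild-type cells, and that of Mfsd8 held 105 and 73. The region of Scarb2, the receptor gene for glucocerebrosidase, held 61 in knockout and 104 in wild-type cells, and the promoter of the acetyltransferase gene Hgsnat held 81 and 116. Promoters of Laptm4a (204 in knockout and 160 in wild-type cells), Laptm4b (10 and 20) and the macrophage-associated Cd68 (12 and 14) were also within 2-fold.

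Among V-ATPase genes, Tcirg1 moved both ways. Tcirg1 encodes the a3 subunit of the pump, which is prominent in osteoclasts. Its promoter region held 9 in knockout and 28 in wild-type cells, 3.11-fold lower (1.57 to 7.67), while a region 3309 bp away inside the gene, on chr19:3903627-3904020, held 46 and 5, 9.2-fold higher (4.29 to 25.0). It was the 1 lysosome gene with regions past 2-fold in both directions. The promoters of Atp6v0d1 (66 in knockout and 55 in wild-type cells) and of the accessory protein gene Atp6ap1 (39 and 40) were within 2-fold.

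In the tagging and sorting of hydrolases, Gnptab had the lowest log2 ratio of the 65 regions. Gnptab encodes the catalytic part of the phosphotransferase that makes the mannose 6-phosphate tag, and its promoter on chr10:88378998-88379863 held 9 in knockout and 56 in wild-type cells, 6.22-fold lower (3.29 to 14.8). Its 1 neighbour within 50 kb had a log2 ratio of 1.66, in the other direction. Relative to the chromosome median the Gnptab log2 ratio of -2.51 became -1.93, and relative to the 50 nearest regions on each side -1.65. The Gnptab region also held the RefSeq start of Gm40733 on the other strand. The receptor gene M6pr, which encodes the cation-dependent mannose 6-phosphate receptor, had the highest signal per kb of region among the 65 (534) and held 368 in knockout and 367 in wild-type cells, with a counting interval of the ratio from 0.879 to 1.15. The promoter of the sorting adaptor gene Gga1 held 55 in knockout and 42 in wild-type cells.

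Of 9 regions of adaptor and clathrin genes, 1 was higher and 1 lower (13% and 13.1% of all promoter regions). The promoter of Ap3d1, encoding the delta subunit of the AP-3 adaptor, held 10 in knockout and 49 in wild-type cells, 4.9-fold lower (2.48 to 9.86), and 2 of its 3 neighbours within 50 kb were also lower. Its log2 ratio of -2.18 became -1.60 with chromosomes and -1.37 with neighbours centred. The promoter of Ap1s2, a sigma subunit gene of AP-1 on chromosome X, held 101 in knockout and 45 in wild-type cells, 2.24-fold higher (1.63 to 3.08). Its 2 neighbours within 50 kb had log2 ratios of 0.80 and 1.51, and relative to the 50 nearest regions on each side the Ap1s2 log2 ratio was -0.14. The other 4 AP-1 and clathrin regions had log2 ratios from 0.26 to 0.51, led by the clathrin heavy chain gene Cltc (29 in knockout and 20 in wild-type cells). The region of Ap3m2, 3409 bp wide, had the highest mean signal of the 9 adaptor and clathrin regions. It held 471 in knockout and 256 in wild-type cells, a ratio of 1.84 (1.60 to 2.11). Its log2 ratio of 0.88 became 0.27 with chromosomes and 0.11 with neighbours centred. Ap3s1 held 106 in knockout and 76 in wild-type cells, a ratio of 1.39 (1.07 to 1.84), in a region whose overlapping Kindlin-2 region is assigned to Atg12. Ap4m1 held 159 in knockout and 145 in wild-type cells, and its region also held the start of Mcm7 on the other strand.

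Position along the genome went with part of these differences. All 5 lysosome regions on chromosome 10 had a negative log2 ratio and 4 were called lower. The 1480 regions of that chromosome had a median of -0.58 and 35.9% of them were called lower. Of the 5 lysosome regions, 1 lay above this median. On chromosome 8, with a median of 0.61, 9 of 11 lysosome regions had a positive ratio, but only 4 of the 11 lay above the chromosome median. With every chromosome centred on its own median, 15 of the 18 regions past 2-fold remained so, Mcoln1, Cd164 and Cd63 did not, and Hgsnat (-1.12) and Cltb (1.15) became so. Centred on the 50 nearest regions on each side, 14 of the 18 remained, and Ctso (-1.04) and Laptm4b (-1.20) came past 2-fold. With chromosomes centred, regions within 2-fold moved as well, with log2 ratios of 0.70 for Ctsl, -0.26 for Ap1m1 and -0.35 for Atp6v0d1. With a pseudocount of 5 the log2 ratios of the inner Galc and Tcirg1 regions and of Acp5 became 3.83, 2.35 and 2.04. The part of chromosome-wide shifts in the calls was not tested.

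**Figure D3:**
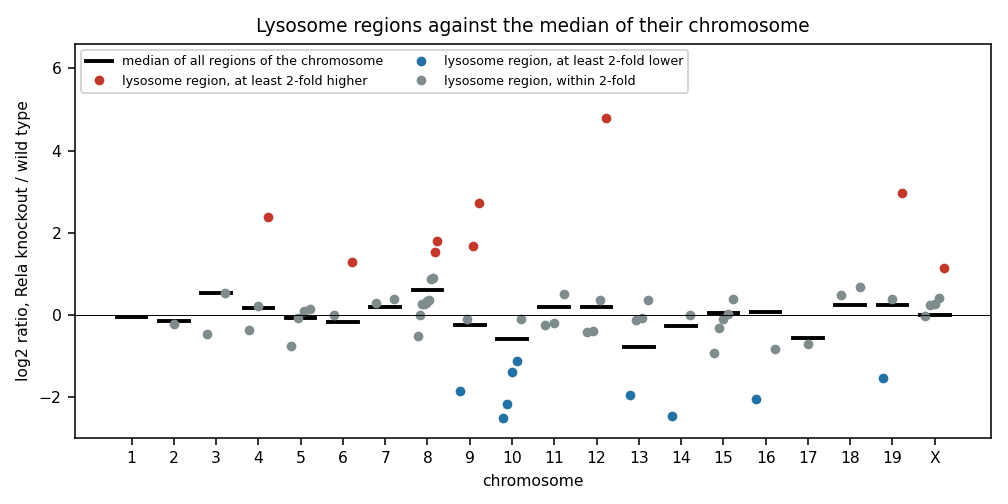
Log2 ratio, Rela knockout over wild type (vertical axis), of the lysosome regions by chromosome (horizontal axis). Points are regions and bars are the medians of all regions of a chromosome. The 5 points of chromosome 10 all lie below 0, beside a bar at -0.58, and the highest point, on chromosome 12, is the region inside Galc.

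Of 27 regions of related genes outside the KEGG set 2 were higher and 4 lower, 22.2% past 2-fold, against 26.1% of all promoter regions and 43.3% of all regions. Of the TFEB family, the Mitf promoter held 23 in knockout and 55 in wild-type cells, 2.39-fold lower (1.52 to 4.01), whereas Tfeb (192 and 157) and both Tfe3 regions (49 and 19, against 39 and 12) were within 2-fold. Tfec had no region. In the list of Ragulator, Rag GTPase and mTORC1 genes, which signal nutrient state from the lysosome surface, 10 of 18 genes were measured. The Rag GTPase gene Rragb (10 in knockout and 106 in wild-type cells) and Lamtor4 (48 and 111) were lower and Fnip1 (28 and 11) was higher. Of 11 regions of the HOPS, CORVET and BLOC-1 list, which covers tethering and organelle biogenesis, Bloc1s5 (14 in knockout and 53 in wild-type cells) was lower while Vps8 had a higher region 4891 bp off (66 and 21). Both measured genes of the V1 and accessory V-ATPase list, Atp6v1e1 and Atp6ap2, were within 2-fold.

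Since Acp5, Tcirg1 and Laptm5 are known from osteoclasts and blood cells, markers of those cells are given beside them. Of 12 macrophage markers 2 had regions, Ptprc and Csf1r, whose 3 regions summed to 61 in knockout and 76 in wild-type cells, and 1 of them, 1458 bp from the Csf1r start, was at the 2-fold limit (11 and 5). Of 9 osteoclast markers 3 had a region, Acp5 itself, Ocstamp (15 in knockout and 33 in wild-type cells) and Nfatc1 (38 and 40), and the sum was 85 in knockout and 77 in wild-type cells, or 53 and 73 without Acp5. The macrophage genes Spi1, Adgre1 and Itgam and the osteoclast genes Calcr, Dcstamp, Ctsk and Mmp9 had no region. Epithelial markers had 4 regions, 2 higher and 2 lower, and 0 of 6 endothelial markers had one. The part of other cell types in these differences was not tested.

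The second comparison asked the same of kidney fibroblasts lacking Kindlin-2, set against floxed cells, in a table with far fewer regions. Of the 21 lysosome regions 3 were higher without Kindlin-2, 2 were lower and 16 lay within 2-fold, with a median log2 ratio of 0.07. Over all 5727 regions 16.2% were called higher and 9.27% lower, a split that became 7.98% and 8.96% after loess scaling and 10.0% and 10.5% after quantile scaling. Among the autosomes, chromosome medians of the log2 ratio ran from -0.42 on chromosome 9 to 0.55 on chromosome 12. Chromosome X had a median of -0.17. The 9 regions of chromosome Y had a median of -1.82, and 88.9% of them were lower, the cause of which was not tested. Of the 19 lysosome promoter regions 2 were higher and 2 lower (10.5% each), against 9.06% and 10.6% of all 2671 promoter regions, so these shares stood near the background. None of the glycan hydrolase genes among the 60 had a region here. Of the 21 counting intervals, 5 left out a ratio of 1 and 0 lay wholly beyond 2-fold, with the depth of the knockout column uncertain.

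The clearest difference was away from a promoter. A region on chr2:174442478-174442845, 3623 bp upstream of the start of the cathepsin Z gene Ctsz, held 63 in Kindlin-2 knockout and 20 in floxed cells, 3.15-fold higher (1.74 to 5.84). Its log2 ratio of 1.61 lay between 1.44 and 1.95 under every pseudocount and scaling tried. Its 2 neighbours within 50 kb were within 2-fold. It was also the 1 lysosome region of this table that no region of the Rela table overlapped: the other 20 of 21 overlapped one (95.2%), against 92.1% of all 2548 regions with a gene name and 75.5% of the 139 such regions beyond 2500 bp. The nearest regions of the Rela table were an unassigned one 2579 bp away, with 21 in Rela knockout and 18 in wild-type cells, and the Ctsz promoter. No Ctsz promoter region was present in the Kindlin-2 table. The other protease genes Ctsl (21 in knockout and 14 in floxed cells), Lgmn (17 and 12) and Ctso (12 and 8) were within 2-fold, with log2 ratios from 0.47 to 0.55 and intervals that included 1.

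**Figure D4:**
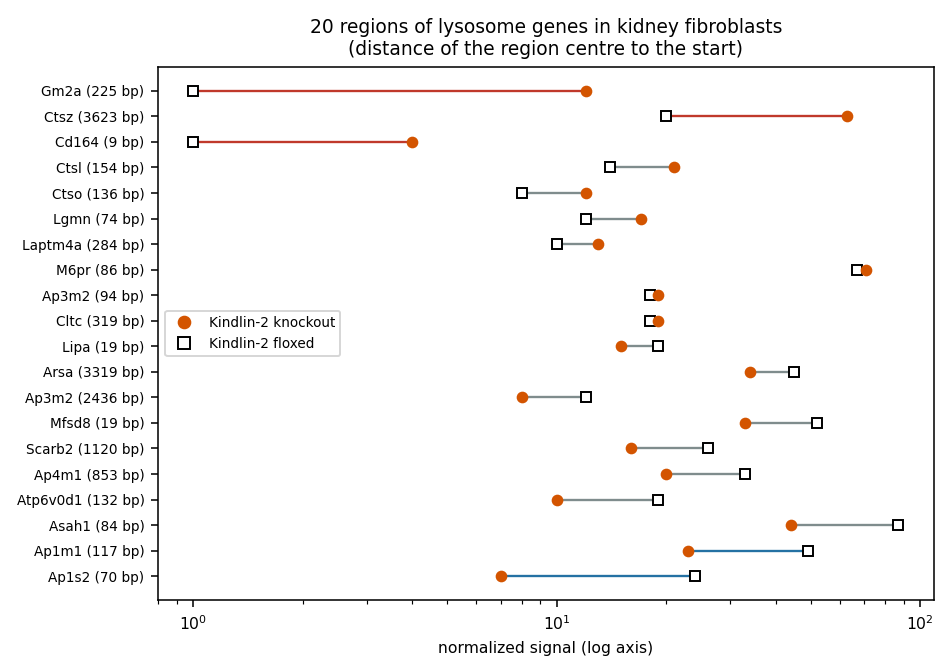
Normalized signal (horizontal log axis) of 20 of the 21 lysosome regions in Kindlin-2 knockout (circles) and floxed cells (squares), with the distance of each region from the start in brackets. Lines are red for regions at least 2-fold higher in the knockout, blue for at least 2-fold lower. Ctsz, at 63 and 20, is the 1 strong region past 2-fold among those higher, since Gm2a and Cd164 had a floxed signal of 1.

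Adaptor genes of AP-1 held both lower regions. The Ap1s2 promoter held 7 in knockout and 24 in floxed cells, 3.43-fold lower (1.39 to 9.91), and that of the mu subunit gene Ap1m1 held 23 and 49, 2.13-fold lower (1.23 to 3.76). The Ap1m1 call was lost with a pseudocount of 5, under loess and quantile scaling and when chromosomes or neighbours were centred (log2 ratios from -0.95 to -0.74). The clathrin gene Cltc held 19 in knockout and 18 in floxed cells. The Ap4m1 region (20 in knockout and 33 in floxed cells) and both Ap3m2 regions (19 and 8, against 18 and 12) were within 2-fold. The acid ceramidase gene Asah1 fell just short of the limit, with 44 in knockout and 87 in floxed cells, a ratio of 0.506 (0.336 to 0.753). Its log2 ratio of -0.97 became -0.51 after loess and -0.52 after quantile scaling. With chromosomes centred it was -0.69, and with neighbours centred -0.89. The V-ATPase gene Atp6v0d1 also fell short, with 10 in knockout and 19 in floxed cells and an interval that included 1.

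The other higher regions rested on a floxed signal of 1. The promoter of the GM2 activator gene Gm2a held 12 in knockout and 1 in floxed cells, a ratio of 12 (1.31 to 377), and its log2 ratio of 2.70 became 0.76 after loess scaling. The Cd164 region held 4 in knockout and 1 in floxed cells, a ratio of 4 (0.291 to 145), and its sign turned after loess and quantile scaling. At this depth no direction can be read for Cd164. The M6pr promoter, highest in mean signal of the 21 regions, held 71 in knockout and 67 in floxed cells. Mfsd8 (33 in knockout and 52 in floxed cells), Scarb2 (16 and 26), Arsa (34 and 45), Lipa (15 and 19) and Laptm4a (13 and 10) were within 2-fold. Of the lists outside the KEGG set, 8 regions of 8 genes were measured, Mitf (15 in knockout and 12 in floxed cells) among them, and 0 passed 2-fold. Of the macrophage markers a region of Ptprc alone was measured, with 27 in knockout and 10 in floxed cells, and markers of the other cell types had none.

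Each table has its own normalization, so only ratios can be placed side by side, for 20 overlapping lysosome regions of 19 genes. Of these, 4 were past 2-fold without Kindlin-2, and 2 of the 4, Ap1s2 and Cd164, were also past 2-fold without Rela. Over all promoter regions 19.6% were past 2-fold without Kindlin-2 and 26.1% without Rela. The share past 2-fold in both knockouts was not computed over all overlapping regions, so no excess can be read from the 2. The log2 ratios at Ap1s2 were -1.64 without Kindlin-2 and 1.15 without Rela, and those at Cd164 were 1.32 and -1.14. These values do not give a direction for either pair, since the Kindlin-2 sign of Cd164 turned with the scaling and the Rela sign of Ap1s2 turned with neighbours centred. Gm2a (2.70 without Kindlin-2 and -0.24 without Rela) and Ap1m1 (-1.06 and 0.35) were past 2-fold in 1 knockout, and whether the knockouts differ there was not tested. The Asah1 promoter stood at -0.97 without Kindlin-2 (-0.51 after loess scaling) and -0.01 without Rela (-0.62 with chromosomes centred). The M6pr promoter stood at 0.08 and 0.00.

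**Figure D5:**
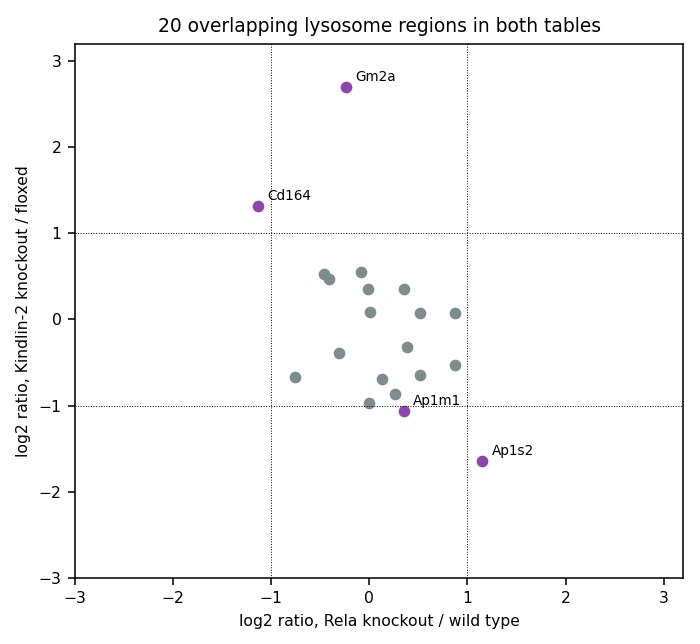
Log2 ratio of Kindlin-2 knockout over floxed (vertical axis) against Rela knockout over wild type (horizontal axis) for the 20 overlapping lysosome regions. Dotted lines mark 2-fold. Most points lie inside the square, and Ap1s2 and Cd164 lie past 2-fold on both axes, though the Kindlin-2 sign of Cd164 turns after loess (-1.86) and quantile scaling (-0.58) and the Rela sign of Ap1s2 with neighbours centred (-0.14).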

How the data were processed

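Mouse fibroblasts of 4 genotypes were profiled by ATAC-seq, which reads out where a transposase can reach DNA. The submitters' processing notes name, without roles, STAR 2.4.2a, bedtools, DESeq2, deepTools and MACS2, as well as Picard 1.136, Trimmomatic 0.33 and FastQC, and the genome mm10. How cut sites were shifted, duplicates and mitochondrial reads treated and replicates combined was not stated. Each deposited table, 1 per knockout, gives a whole-number score per region and genotype, a background-corrected, DESeq-normalized signal per the labels' table names. The distance of a region's centre to the start, in bp, is the deposited one. The tables do not state whether positions count from 0 or 1.

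Samples were grouped by title. The members, lists and tests were chosen with earlier results of these data known. A limma fit was planned only for replicate columns, so it was not made. Regions entered with a mean of at least 1. Implied counts came from the spacing of the whole values, which gave scaling factors of 0.949 for Rela knockout (90.7% of deviance explained), 0.683 for Rela wild type (97.2%) and 1.36 for Kindlin-2 floxed (95.4%). For the Kindlin-2 knockout the best factor explained 12.2%, so 1 was used and its depth is uncertain. Intervals are exact (Clopper-Pearson) and cover counting error only. Genes were grouped by hand-made role lists. Results of 4 member genes are not reported here by name, though all counts and medians include them. The genes named were Ctsz, every member in the Kindlin-2 table, up to 4 genes per role and direction past 2-fold with a mean of at least 10, the strongest region within 2-fold per role, members with regions in opposite directions, Lamp1, Lamp2 and the TFEB family, and others are given as context. Alternatives were pseudocounts, signal filters, scalings, thresholds, promoter windows, gene means, Slc genes kept, count factors and the motif window. Python 3.11.15, scipy 1.17.1 and statsmodels 0.14.6 were used, and the recovery of scaling factors was tested on simulated data.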

Additional observations from a re-analysis of the deposited data

How the results depend on the processing

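In the Rela table the 9 higher and 9 lower lysosome regions became 5 and 2 when the mean signal had to reach the table's median, and 4 and 5 among regions that hold a RefSeq start of the assigned gene, an alternative chosen after seeing the data. The higher count was also 5 for promoters within 1000 bp. These alternatives keep fewer regions (44, 34 and 53 of 65). Under the other alternatives both counts stayed within 1.5 times of 9, and the median log2 ratio lay between -0.05 and 0.11. The sign of Ap1s2 turned to -0.14 when centred on the 50 nearest regions on each side, and the cause was not tested. In the Kindlin-2 table the 3 higher regions became 1 after loess scaling, with a mean signal of at least 10, at or above the median signal, and among regions holding a RefSeq start. The 2 lower regions became 1 with a pseudocount of 5, with chromosomes or neighbours centred, at a 3-fold threshold, at or above the median signal and among regions holding a RefSeq start, and 7 at a 1.5-fold threshold. The sign of Cd164 turned to -1.86 after loess and -0.58 after quantile scaling. With a factor of 1 in every column, 29 in place of 33 Rela intervals left out 1. The depth of the Kindlin-2 knockout column is unknown, and intervals there assume a factor of 1. No paired analysis was possible because each genotype has 1 column.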
